A study of Mus musculus with 6 samples.

Results

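The genes described here encode the enzymes that build nucleotides and those that supply them with ribose, serine-derived carbon and folate-bound carbon. A total of 34 genes was listed by pathway membership, and 32 of them were measured among 18193 genes. G6pdx and Impdh2 were not analysed here. The measured genes were read as 5 branches: 6 of the pentose phosphate pathway, 13 of purine synthesis and salvage, 5 of pyrimidine synthesis and salvage, 3 of serine synthesis and 5 of folate metabolism. Where several probe sets named a gene alone, the one with the highest mean over the 6 arrays was used.

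RNA came from bone marrow cells of mice that were sorted as negative for lineage markers and Flt3 and positive for Sca1 and cKit, a fraction enriched for blood stem and progenitor cells. The Raptor mutant group (3 arrays) came from mice with exon 6 of both Raptor alleles floxed and with the MxCre transgene, in which an interferon-responsive promoter drives the recombinase Cre, so that deletion is not limited to blood cells. The Raptor wild type group (3 arrays) carried the same floxed alleles without MxCre. All mice were on a C57BL/6 background and received 15 µg per g body weight of polyinosinic-polycytidylic acid (pIpC), an interferon inducer, in 3 injections over 5 days, followed by 5 weeks before sorting. The labels give neither age nor sex, and leave unsaid whether arrays came from different animals. The p-values therefore describe array-to-array spread, part of which may be technical.

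Raptor is the scaffold protein that sets the kinase complex mTORC1 apart, and mTORC1 drives growth when nutrients and growth factors are present. In cultured mouse cells mTORC1 is known to act on nucleotide supply by several routes: its effector S6 kinase phosphorylates the pyrimidine enzyme CAD, the transcription factor ATF4 raises serine and folate genes such as Mthfd2 for purine synthesis, and SREBP factors raise genes of the oxidative pentose phosphate pathway. MYC is also known to activate many purine and pyrimidine genes in growing cells. The comparison here asks how the transcripts of these enzymes differ between mutant and wild type cells.

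Values are log2 of the deposited RMA intensity, and a fold change is mutant minus wild type on that scale, with the standard error (SE) of limma. A gene was called changed at a limma adjusted p under 0.05 over all genes. Array medians lay between 6.85 and 6.94. Over all probe sets, r was 0.985 to 0.988 between mutant arrays and 0.957 to 0.967 between wild type arrays, as correlations across probe sets. The Y-linked genes Eif2s3y and Kdm5d had a mean log2 signal of 3.82 to 4.21 on the mutant arrays, against 3.79 on wild type array 1 and 10.7 and 10 on wild type arrays 2 and 3, so arrays with this signal were unevenly spread over the groups. The targeted gene Rptor stood at 8.68, 7.99 and 8.33 on mutant arrays 1 to 3, against 8.57, 8.17 and 7.59 on wild type arrays 1 to 3 (log2 fold change 0.22, limma adjusted p = 0.77). Where its probes lie with respect to exon 6 was not examined, so this value checks neither the deletion nor the labels.

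Purine, pyrimidine, serine and folate genes had mostly higher signal in mutant cells, and pentose phosphate genes did not. All 3 mutant arrays lay above all 3 wild type arrays in 14 of the 32 genes (43.8%), against 8.08% of all genes, and below them in 3 (9.38%), against 7.98% of all genes. The 14 were Prps1, Ppat, Gart, Pfas, Adsl, Atic, Gmps, Cad, Umps, Phgdh, Psat1, Shmt1, Shmt2 and Mthfd1l, and the 3 were Taldo1, Psph and Mthfd2. No single gene passed the test: limma called 0 of 32, against 0.110% of all genes (20 of 18193, with 0.0550% called higher and 0.0550% lower), and the smallest adjusted p was 0.18, for Phgdh. At an unadjusted p under 0.05 there were 11 genes with higher and 3 with lower mutant means, where 5.81% of all genes were higher and 4.24% lower with such a p. The median log2 fold change of the 32 genes was 0.27, against -0.07 over all genes.

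These genes were bright, with a median signal at percentile 89.7 of all genes, and bright genes as a whole leaned upward in mutant arrays. Among the 9088 genes with the higher means, the mutant arrays were all higher in 13.4% and all lower in 7.26%, and the median log2 fold change was 0.06. By sign alone, 62.5% of the 32 genes were above 0, against 58.5% of these 9088 and 40.4% of all genes. The 9088 genes had a median percentile of 75, so they do not match the 32 in brightness. By branch, median log2 fold changes were 0.50 for serine, 0.48 for pyrimidine, 0.35 for folate, 0.25 for purine and -0.11 for pentose phosphate genes. The differences between branches were not tested. With wild type array 3 left out, the median over the 32 genes was 0.17, and with both wild type arrays that carry Y-linked signal left out it was 0.22. With both of those arrays left out, the mutants are compared with wild type array 1 alone, and several single genes then had clearly smaller or larger values, given beside them. In bulk RNA, fewer cells of a kind and less RNA per cell cannot be told apart.

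**Figure D1:**
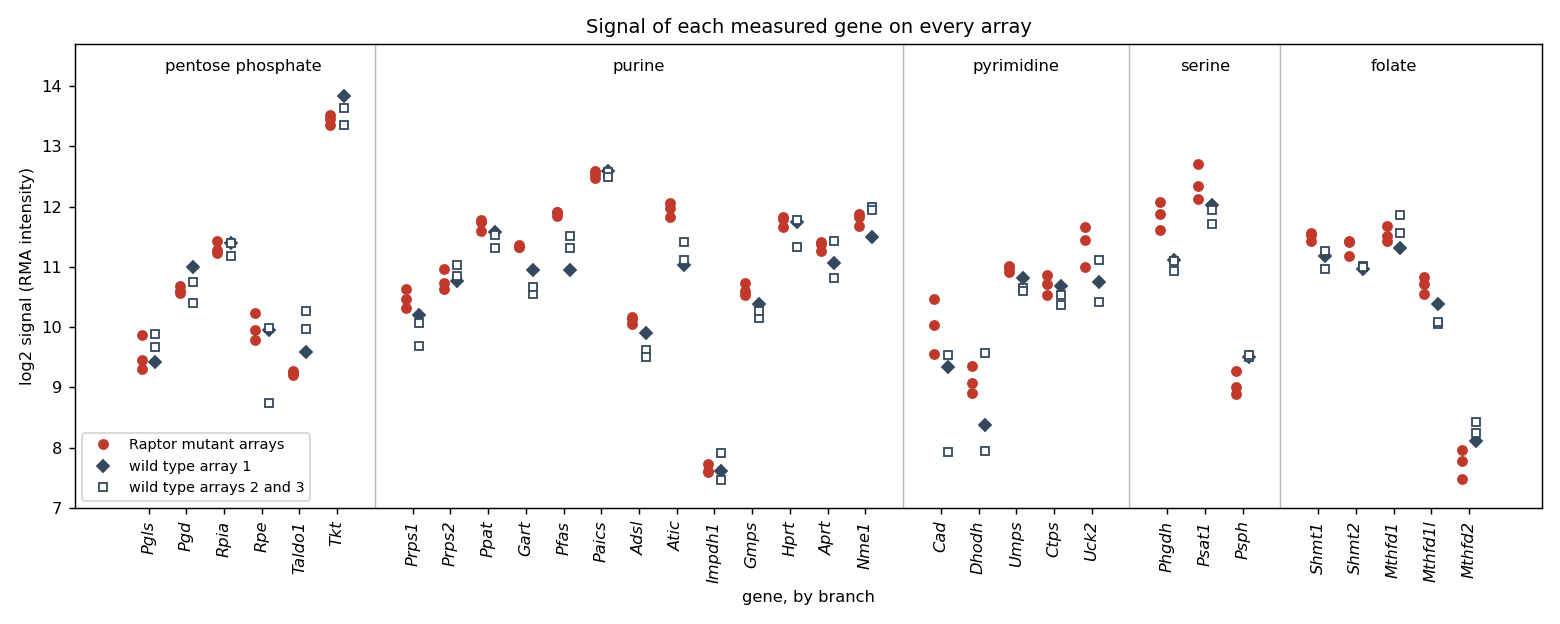
Log2 signal of the 32 measured genes on each array, by branch, with 3 mutant arrays as filled circles left of the wild type arrays (array 1 as a filled diamond, arrays 2 and 3 as open squares). The mutant circles lie above all wild type symbols in 14 genes, 7 of them of the purine branch, and below them in Taldo1, Psph and Mthfd2.

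**Figure D2:**
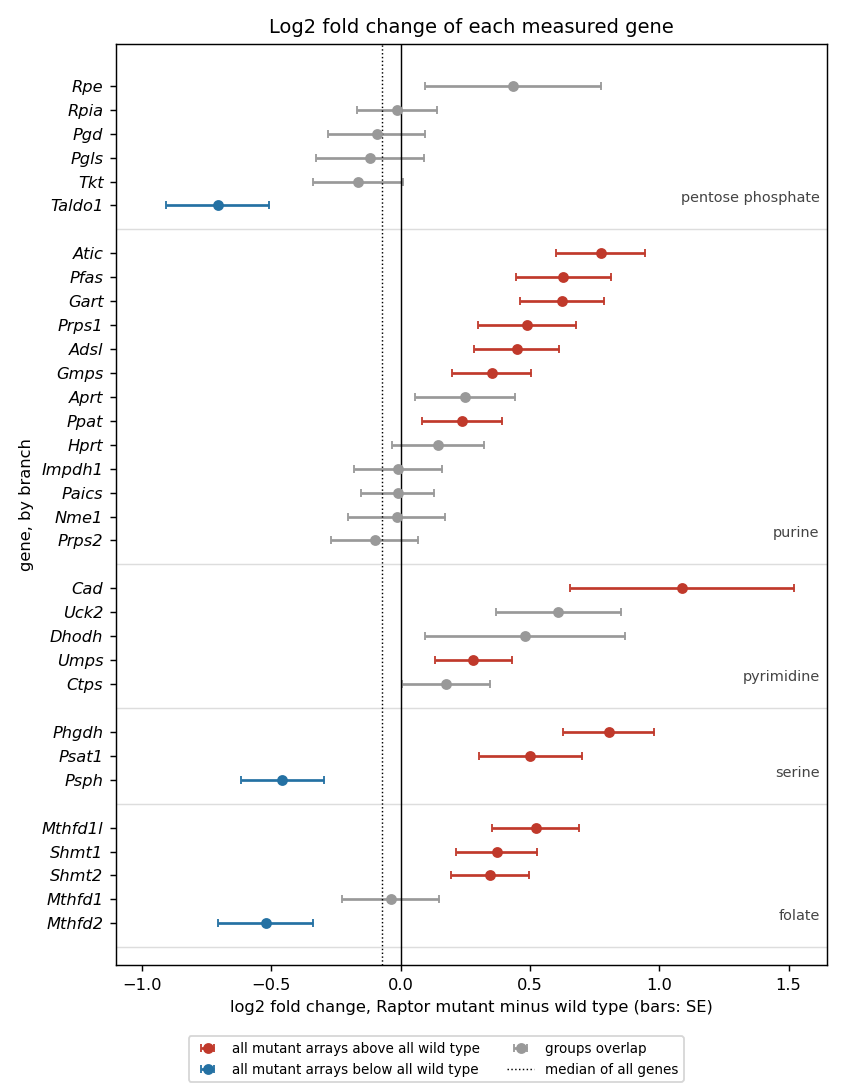
Log2 fold change (mutant minus wild type) of each gene with its SE, sorted within branch and coloured by whether the arrays of the groups overlap. Values run from -0.71 for Taldo1 to 1.09 for Cad, and the dotted line marks the median of all genes at -0.07. The value of Cad is 0.59 without wild type array 3.

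Purine synthesis starts from phosphoribosyl pyrophosphate (PRPP), on which the ring is assembled to inosine monophosphate (IMP), the source of both AMP and GMP. Of the 6 measured genes of this de novo route, 5 (83.3%) were higher on every mutant than on every wild type array (Ppat, Gart, Pfas, Adsl and Atic) and Paics was not. The same held for 8.08% of all genes and 13.4% of the 9088 brighter genes. The median log2 fold change of the 6 was 0.54, against 0.25 for all 13 purine genes and -0.07 over all genes. No gene of the route was called by limma, and the smallest adjusted p was 0.18, for Atic.

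Atic encodes the bifunctional enzyme that closes the ring to IMP. It stood at 11.82, 12.06 and 11.99 on mutant arrays 1 to 3, against 11.02, 11.42 and 11.11 on wild type arrays 1 to 3. The groups were separated by 0.41 at their nearest values, and the log2 fold change was 0.77 ± 0.17 (SE), or 1.71-fold. A dimmer Atic probe set gave 0.37 ± 0.20, with wild type array 2 inside the mutant range. Gart, a trifunctional enzyme of early ring assembly, had 11.36, 11.34 and 11.34 on mutant arrays, against 10.95, 10.55 and 10.67 on the wild type arrays. The mutant values were nearly equal (SD 0.01, n = 3) and the wild type values spread (SD 0.20, n = 3), with a log2 fold change of 0.62 ± 0.16 (limma adjusted p = 0.25). The dimmer Gart probe sets gave 0.52, 0.21 and -0.02, with overlapping groups at each. So the size, the sign and the separation depended on the probe set. The value of 0.52 came with wild type array 2 at 8.47 and wild type arrays 1 and 3 at 10.29 and 10.13. The mean of the Gart probe sets gave 0.33, and the comparison with wild type array 1 alone gave 0.40.

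Pfas, which adds a nitrogen from glutamine before the imidazole ring is closed, had 11.84, 11.91 and 11.90 on mutant arrays, against 10.94, 11.51 and 11.32 on the wild type arrays. Wild type array 1 was the lowest, and the log2 fold change was 0.63 ± 0.18 (limma adjusted p = 0.31), or 0.94 against wild type array 1 alone. Adsl, the lyase that acts late in the route and again in making AMP, had 10.13, 10.17 and 10.06 on mutant arrays, against 9.90, 9.61 and 9.51 on the wild type arrays. Here wild type array 1 was the nearest to the mutants, and the log2 fold change was 0.45 ± 0.16 (limma adjusted p = 0.44), or 0.22 against that array alone.

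Ppat and Paics are neighbours in the genome, and each annotated start lies inside the other gene. Ppat encodes the amidotransferase that commits PRPP to the route, and Paics a bifunctional enzyme of its middle steps, and their annotated starts lie 276 bases apart on opposite strands of chromosome 5. Ppat had 11.75, 11.78 and 11.60 on mutant arrays, against 11.57, 11.53 and 11.32 on the wild type arrays, a log2 fold change of 0.24 ± 0.16 (limma adjusted p = 0.63) with groups that touch within 0.03. It was 0.15 with the mean of its probe sets and 0.14 against wild type array 1 alone. Paics ran from 12.48 to 12.60 on mutant arrays and from 12.50 to 12.59 on wild type arrays. Its log2 fold change was -0.01, with a 95% interval of -0.34 to 0.32, and its dimmer probe sets gave -0.08 and -0.11. Whether the neighbours differ in response was not tested.

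The promoter windows of these neighbours and of Atic and Prps1 are shown because the genes differ in signal while sharing a pathway, and because 3 of the 4 hold a searched motif. Each window runs from 250 bases before to 50 bases after the annotated start (RefSeq, GRCm38.p6), written 5′ to 3′ on the gene's strand, with capitals for CACGTG (the E-box of MYC) or TGATGNAA (the ATF4 response element), both strands searched. The windows are Ppat at chr5:76951529-76951828 (minus strand), Paics at chr5:76951052-76951351 (plus), Atic at chr1:71556906-71557205 (plus) and Prps1 at chrX:140456353-140456652 (plus).
Ppat: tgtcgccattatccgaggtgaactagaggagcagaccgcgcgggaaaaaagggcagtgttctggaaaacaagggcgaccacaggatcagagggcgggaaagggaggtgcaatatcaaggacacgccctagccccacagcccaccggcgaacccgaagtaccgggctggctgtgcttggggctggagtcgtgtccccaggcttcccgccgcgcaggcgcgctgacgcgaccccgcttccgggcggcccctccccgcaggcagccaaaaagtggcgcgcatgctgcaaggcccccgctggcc
Paics: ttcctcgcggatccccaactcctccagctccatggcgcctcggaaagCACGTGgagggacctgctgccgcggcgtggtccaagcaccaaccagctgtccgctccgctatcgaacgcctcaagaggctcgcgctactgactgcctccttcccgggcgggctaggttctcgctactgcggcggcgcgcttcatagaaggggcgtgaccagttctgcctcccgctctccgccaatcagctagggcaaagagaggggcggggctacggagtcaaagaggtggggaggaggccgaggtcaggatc
Atic: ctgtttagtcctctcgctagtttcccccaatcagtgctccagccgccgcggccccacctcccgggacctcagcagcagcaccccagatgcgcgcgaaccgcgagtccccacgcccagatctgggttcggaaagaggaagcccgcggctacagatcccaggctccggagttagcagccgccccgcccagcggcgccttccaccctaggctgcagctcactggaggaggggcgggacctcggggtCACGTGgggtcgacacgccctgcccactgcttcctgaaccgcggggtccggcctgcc
Prps1: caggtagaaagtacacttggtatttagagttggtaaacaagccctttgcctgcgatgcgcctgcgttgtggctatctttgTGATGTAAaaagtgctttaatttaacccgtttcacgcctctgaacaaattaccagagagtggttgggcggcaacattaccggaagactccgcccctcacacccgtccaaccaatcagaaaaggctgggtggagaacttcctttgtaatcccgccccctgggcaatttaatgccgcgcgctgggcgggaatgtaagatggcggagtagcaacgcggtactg

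Promoter windows were found for 32 of the 34 listed genes. CACGTG occurred in those of 4 genes (Atic, Paics, Nme1 and Impdh2), against 7.15% of all 32851 windows. TGATGNAA occurred in that of Prps1 alone, against 3.97% of all windows, and TCACNCCAC, the sterol response element, in none of the 32, against 1.24%. No listed gene held more than 1 of these motifs. The genes with CACGTG included Atic, with a log2 fold change of 0.77, and also Paics and Nme1, each with one of -0.01. A match of letters is a description and shows no binding.

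PRPP itself is made by the paralogues Prps1 and Prps2, and a difference between them in response was not tested. Prps1 had 10.48, 10.32 and 10.64 on mutant arrays, against 10.21, 10.07 and 9.69 on the wild type arrays, a log2 fold change of 0.49 ± 0.19 (limma adjusted p = 0.46). Prps2 ran from 10.63 to 10.97 on mutant arrays and from 10.76 to 11.03 on wild type arrays, a log2 fold change of -0.10 ± 0.17, with a 95% interval of -0.49 to 0.29. Its dimmer probe sets gave -0.03 with overlap and 0.53 with every mutant array above every wild type array. The mean of its probe sets gave 0.13, so no direction was settled. Both genes and the salvage gene Hprt lie on the X chromosome, and the wild type arrays with Y-linked signal gave 10.07 and 9.69 for Prps1, against 10.21 on the wild type array without it. The log2 fold change of Prps1 was 0.30 after fitting the Y-linked signal as a term and 0.27 against wild type array 1 alone.

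Beyond IMP, guanine nucleotides are made by the Impdh enzymes and then by Gmps, which aminates the xanthine intermediate to GMP. Gmps had 10.60, 10.53 and 10.73 on mutant arrays, against 10.39, 10.15 and 10.27 on the wild type arrays, a log2 fold change of 0.35 ± 0.15 (limma adjusted p = 0.50) with groups 0.15 apart. It was 0.22 with the mean of its probe sets and 0.23 against wild type array 1 alone. Impdh1, near the middle of the signal range at percentile 51.1, had a log2 fold change of -0.01 with a 95% interval of -0.41 to 0.39. The salvage enzymes Hprt and Aprt, which recycle free purine bases, and the nucleoside diphosphate kinase Nme1 had log2 fold changes of 0.14, 0.25 and -0.01, and their groups overlapped. Aprt ranged from 0.11 without wild type array 2 to 0.41 without wild type array 3. Among the 13 purine genes, 7 (53.8%) were higher on every mutant array, against 8.08% of all genes, and 0 were lower on every one, against 7.98%.

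Pyrimidine synthesis builds the ring first and attaches it to PRPP afterwards. All 5 measured genes had a higher mutant mean, where 40.4% of all genes did. In Cad and Umps (40%) every mutant array was higher, against 8.08% of all genes. Cad, the trifunctional enzyme of the opening steps, had 9.56, 10.03 and 10.47 on mutant arrays, against 9.34, 9.53 and 7.93 on the wild type arrays. Wild type array 3 lay far below the other arrays of its group, mutant array 1 was only 0.02 above wild type array 2, and the log2 fold change was 1.09 ± 0.43, or 2.13-fold (limma adjusted p = 0.47). Without wild type array 3 it was 0.59, and against wild type array 1 alone 0.68. The dimmer Cad probe sets gave 0.71 ± 0.24 and 0.68 ± 0.20, and at both the 3 mutant arrays were again the highest.

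Umps, the bifunctional enzyme that forms UMP, had 10.91, 10.98 and 11.02 on mutant arrays, against 10.82, 10.65 and 10.60 on the wild type arrays. The difference was small but without overlap, at 0.28 ± 0.15 (limma adjusted p = 0.57), and the dimmer probe sets gave 0.47, 0.35 and -0.41. The mean of its probe sets gave 0.17, and the comparison with wild type array 1 alone 0.15. Dhodh, the mitochondrial dehydrogenase between Cad and Umps, had 8.90, 9.08 and 9.36 on mutant arrays, against 8.37, 9.57 and 7.95 on the wild type arrays. Wild type array 2 was the highest of all, and the log2 fold change was 0.48 ± 0.39 (limma adjusted p = 0.67). It was 0.14 without wild type array 3, 0.95 without wild type array 2 and 0.74 without both.

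Ctps, which aminates UTP to CTP, had 10.72, 10.87 and 10.53 on mutant arrays, against 10.69, 10.37 and 10.53 on the wild type arrays, a log2 fold change of 0.18 ± 0.17 (limma adjusted p = 0.71) with overlapping groups. Uck2, a kinase that salvages uridine and cytidine, had 11.44, 11.66 and 11.00 on mutant arrays, against 10.75, 11.11 and 10.42 on the wild type arrays. Only mutant array 3 and wild type array 2 crossed, the log2 fold change was 0.61 ± 0.24 (limma adjusted p = 0.47), and the 5 dimmer probe sets gave 0.36 to 0.96. The pyrimidine median of 0.48 leaned on single wild type arrays: it was 0.24 without wild type array 3 and 0.79 without wild type array 2.

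Serine is made from a glycolytic intermediate by Phgdh, Psat1 and Psph acting in that order, and it feeds glycine and carbon units into purines. The first enzymes of this chain were higher on every mutant array and the last was lower. Phgdh, the dehydrogenase that opens the chain, had 11.61, 12.08 and 11.87 on mutant arrays, against 11.12, 10.93 and 11.10 on the wild type arrays. The groups lay 0.49 apart at their nearest values, with a log2 fold change of 0.80 ± 0.18, or 1.75-fold (limma adjusted p = 0.18), and the 3 dimmer probe sets gave 0.43 to 0.67. Psat1, the transaminase, had 12.13, 12.34 and 12.71 on mutant arrays, against 12.03, 11.71 and 11.94 on the wild type arrays. Mutant array 1 was 0.09 above wild type array 1, with a log2 fold change of 0.50 ± 0.20 (limma adjusted p = 0.47) and 0.19 ± 0.16 at the dimmer probe set.

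Psph, the phosphatase that releases serine, had 9.27, 8.89 and 9.01 on mutant arrays, against 9.50, 9.50 and 9.54 on the wild type arrays. The wild type values were nearly equal (SD 0.02, n = 3) and all above the mutants, with a log2 fold change of -0.46 ± 0.16 (limma adjusted p = 0.42). It has a single probe set here, so no other measurement of the gene was at hand.

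Folate enzymes carry the carbon of serine to purines, in the cytosol (Shmt1, Mthfd1) and in mitochondria (Shmt2, Mthfd2, Mthfd1l). Both serine hydroxymethyltransferases were higher on every mutant array. Shmt1 had 11.43, 11.56 and 11.53 on mutant arrays, against 11.18, 10.96 and 11.27 on the wild type arrays, a log2 fold change of 0.37 ± 0.16 (limma adjusted p = 0.49). Its dimmer probe sets gave larger values of 0.49, 0.76 and 0.80, and the mean of all 4 gave 0.60. Shmt2 had 11.18, 11.43 and 11.41 on mutant arrays, against 10.96, 11.02 and 11.00 on the wild type arrays, a log2 fold change of 0.35 ± 0.15 (limma adjusted p = 0.50), and its dimmer probe sets gave 0.15 to 0.61.

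The mitochondrial enzymes downstream of Shmt2 had differences of opposite sign. Mthfd1l, which releases formate from its folate carrier, had 10.56, 10.71 and 10.83 on mutant arrays, against 10.39, 10.04 and 10.09 on the wild type arrays, a log2 fold change of 0.52 ± 0.17 (limma adjusted p = 0.38), or 0.31 against wild type array 1 alone. Mthfd2, the dehydrogenase and cyclohydrolase before it and a known target of ATF4, had 7.77, 7.49 and 7.96 on mutant arrays, against 8.12, 8.43 and 8.24 on the wild type arrays. The groups lay 0.16 apart and the log2 fold change was -0.52 ± 0.18 (limma adjusted p = 0.42). At the dimmer Mthfd2 probe set the groups overlapped, with a log2 fold change of -0.09 ± 0.36, and the mean of both probe sets gave -0.31. Mthfd1, the cytosolic trifunctional enzyme, had 11.51, 11.68 and 11.43 on mutant arrays, against 11.32, 11.86 and 11.56 on the wild type arrays. Its log2 fold change was -0.04 ± 0.19, with a 95% interval of -0.47 to 0.40. The dimmer probe sets gave 0.48, with every mutant array above every wild type array, and -0.16 with overlap.

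The pentose phosphate pathway makes NADPH in its oxidative arm (G6pdx, Pgls, Pgd) and ribose phosphate in its non-oxidative arm (Rpia, Rpe, Tkt, Taldo1). Of the 6 measured genes, 5 had a lower mutant mean, and Taldo1 was lower on every mutant array (16.7%, against 7.98% of all genes). Taldo1, a transaldolase, had 9.24, 9.21 and 9.27 on mutant arrays, against 9.59, 9.97 and 10.27 on the wild type arrays. The mutant values were tightly grouped (SD 0.03, n = 3), wild type array 1 was the nearest at 0.33 above them, and the log2 fold change was -0.71 ± 0.20, or 0.613-fold (limma adjusted p = 0.29). It was -0.40 after fitting the Y-linked signal as a term and -0.36 against wild type array 1 alone. Tkt, the transketolase, was among the brightest transcripts (percentile 99.6), at 13.51, 13.46 and 13.36 on mutant arrays, against 13.84, 13.35 and 13.64 on the wild type arrays. Its groups overlapped, with a log2 fold change of -0.16 ± 0.18 (limma adjusted p = 0.73), or -0.39 against wild type array 1 alone.

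In the oxidative arm, Pgls, the lactonase, had 9.31, 9.45 and 9.87 on mutant arrays, against 9.43, 9.89 and 9.67 on the wild type arrays, and Pgd, the dehydrogenase that releases ribulose phosphate, had 10.56, 10.69 and 10.61, against 10.99, 10.40 and 10.74. Their groups overlapped, with log2 fold changes of -0.12 and -0.09 and 95% intervals of -0.60 to 0.36 and -0.53 to 0.34. Against wild type array 1 alone the values were 0.12 for Pgls and -0.37 for Pgd. Rpe, the epimerase, had 10.24, 9.96 and 9.79 on mutant arrays, against 9.96, 9.98 and 8.74 on the wild type arrays. Only wild type array 3 was apart, and the log2 fold change of 0.43 ± 0.34 (limma adjusted p = 0.67) stood against -0.52 and -0.48 at its dimmer probe sets. At both dimmer probe sets every mutant array lay below every wild type array. Without wild type array 3 the brightest probe set gave 0.03. Rpia, the isomerase, had a log2 fold change of -0.01 and overlapping groups. The pentose phosphate median of -0.11 moved to -0.02 with wild type array 1 left out, and to -0.07 with mutant array 1 left out. Against wild type array 1 alone it moved the other way, to -0.218.

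The 32 genes were represented by 77 probe sets, and 21 genes had more than 1. Of the 45 dimmer probe sets, 36 had the sign of the brightest one and 9 had the opposite sign, and limma called 0 of the 45 when all probe sets were fitted separately. The log2 fold change was above 0 at every probe set in 10 of the 21 genes (Aprt, Atic, Cad, Dhodh, Gmps, Phgdh, Psat1, Shmt1, Shmt2 and Uck2) and below 0 at every one in 3 (Mthfd2, Paics and Tkt).

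**Figure D3:**
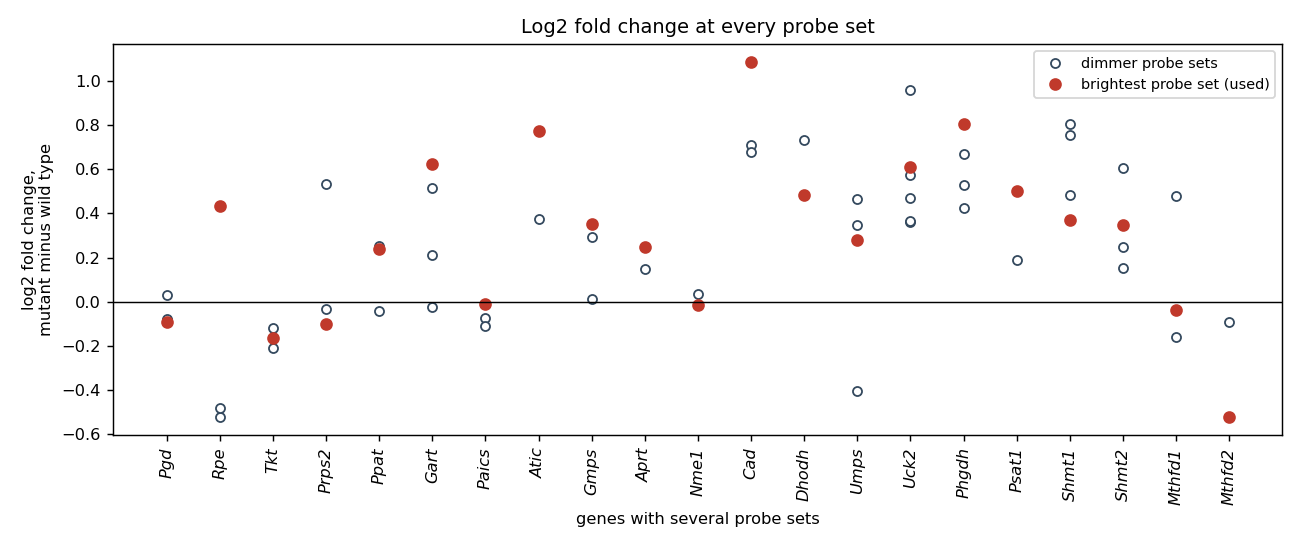
Log2 fold change (mutant minus wild type) at every probe set of the 21 genes with more than 1, with the brightest and used one filled and the dimmer ones open. The 10 genes that lie above 0 at all of theirs include Phgdh, Cad, Uck2, Shmt1 and Shmt2, while the dimmer probe sets of Rpe lie on the other side of 0 from the brightest.

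Other genes of these pathways, listed with earlier results of these data known, did not show the same lean throughout, and limma called 0 of them. Among 13 genes of deoxynucleotide supply, 4 were higher on every mutant array (8.08% of all genes were) and 0 were lower on every one (7.98% of all genes were). With an unadjusted p under 0.05 there were 3, all higher, against 5.81% of all genes. Dguok, the mitochondrial kinase of deoxyguanosine, had 9.56, 10.08 and 9.77 on mutant arrays, against 8.68, 8.20 and 8.95 on the wild type arrays, a log2 fold change of 1.19 ± 0.24 (limma adjusted p = 0.16). Dctd, a deaminase on the way to dTMP, and the thymidine kinase Tk1 had log2 fold changes of 0.68 and 0.48 without overlap, whereas Rrm1 and Rrm2, the subunits of ribonucleotide reductase, had -0.08 and 0.05.

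Among 16 other folate and glycine genes, 5 were higher on every mutant array and 0 were lower on every one, to be read against the same 8.08% and 7.98%. With an unadjusted p under 0.05 there were 4, all higher, against 5.81% of all genes. They include Mtrr and Mtr, which regenerate methionine together (0.78 ± 0.18 and 0.75 ± 0.26), and Slc25a32, the mitochondrial folate carrier (0.55 ± 0.18), as log2 fold changes with limma adjusted p of 0.22 to 0.40. In serine uptake and use, Sfxn1, the mitochondrial serine transporter, had a log2 fold change of 0.47 ± 0.17 without overlap. Ptdss2, which uses serine for phospholipid synthesis, had one of -1.50 ± 0.63, with wild type array 2 at 10.96 and the other two wild type arrays at 8.41 and 8.53. In the same list of 11, Sptlc1, of sphingolipid synthesis (0.60), had overlapping groups, and the median was 0.02.

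Of 10 other pyrimidine genes, several of them catabolic, 3 had a mutant mean above that of wild type, where 40.4% of all genes did. None of the 10 was higher and 2 were lower on every mutant array, where 7.98% of all genes were lower, and the median log2 fold change was -0.15. Upp1, which splits uridine, had 6.26, 6.68 and 7.02 on mutant arrays, against 7.09, 7.76 and 7.37 on the wild type arrays, a log2 fold change of -0.76 ± 0.25 (limma adjusted p = 0.40). Dpys (-0.56) and Dpyd (-0.20), which degrade pyrimidine bases, were dim, at 4.57 to 5.44 and 3.94 to 4.45 over all arrays. Of 14 other purine genes, 1 was higher (Ampd3, an AMP deaminase, 1.03 ± 0.46) and 1 lower (Ak1, an adenylate kinase, -0.39 ± 0.16) on every mutant array, close to the shares of all genes, and Gda, a guanine deaminase, had 1.29 ± 0.51 with overlap. By sign this list leaned upward, with 11 of the 14 above 0 (78.6%, against 40.4% of all genes and 58.5% of the 9088 brighter genes). Its median log2 fold change was 0.20, near the 0.25 of the purine branch.

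Of 13 other genes of NADPH and sugar phosphates, H6pd, the hexose phosphate dehydrogenase of the endoplasmic reticulum, was higher and Shpk, the sedoheptulose kinase, lower on every mutant array, with log2 fold changes of 0.30 and -0.61. Each is 7.69% of the list, close to the 8.08% of all genes that were higher and the 7.98% that were lower. Me1, the cytosolic malic enzyme, had -0.72 with overlapping groups, and the median of the list was -0.02. Of 8 transcription factors known to act on these pathways, Myc was the only one whose groups did not overlap. That is 12.5% of the list, where 16.1% of all genes and 20.6% of the 9088 brighter genes did not overlap. Myc stood at 12.78, 12.84 and 12.77 on mutant arrays, against 12.58, 12.24 and 12.33 on the wild type arrays. Its log2 fold change was 0.41 ± 0.16 (limma adjusted p = 0.46). Atf4, Srebf2 and Nfe2l2 had log2 fold changes of -0.23, -0.39 and 0.35 with overlapping groups.

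**Figure D4:**
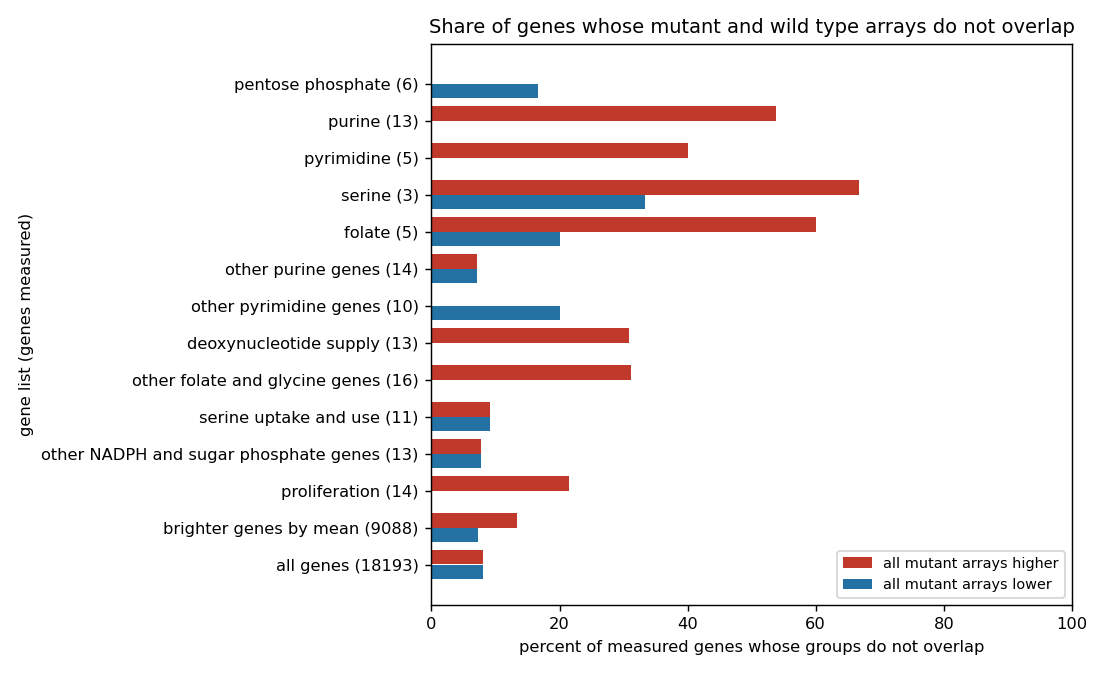
Percent of measured genes in each list whose 3 mutant arrays were all above (upper bar) or all below (lower bar) the 3 wild type arrays, with the number of genes measured in brackets. All mutant arrays were higher in 53.8% of 13 purine, 40.0% of 5 pyrimidine, 66.7% of 3 serine and 60% of 5 folate genes. The shares were 8.08% of all genes and 13.4% of the 9088 brighter genes. All mutant arrays were lower in 33.3% of serine, 20% of folate and 16.7% of 6 pentose phosphate genes, against 7.98% of all genes and 7.26% of the brighter genes. With so few genes in a branch, a single gene moves its share widely.

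Markers of other cell types differed between the groups along with these genes, and their part in these results was not tested. Kit and Cd34 were bright on every array, from 10.71 to 11.87, with log2 fold changes of -0.11 and -0.19 and overlapping groups. Other stem and progenitor markers, Mecom, Procr, Hlf and Meis1, were lower on every mutant array. Their log2 fold changes were -0.996, -0.86, -0.81 and -0.59, and limma called 0 of them. In this list of 8, 2 had a mutant mean above that of wild type. Summed linear intensity over 8 stem and progenitor markers was 14741 to 15663 on mutant arrays and 18397 to 20262 on wild type arrays, and 4 of them were lower on every mutant array. For 10 granulocyte markers it was 2094 to 5975 on mutant and 19277 to 27983 on wild type arrays (7 or 70% lower on every mutant array, 2 called). For 9 mast cell and basophil markers it was 5664 to 8889 and 2255 to 2829 (5 or 55.6% higher on every mutant array, 1 called, Gzmb). The other 4 overlapped, among them Tpsb2 and Mcpt4 with log2 fold changes of -0.06 and 0.007. For 10 macrophage and dendritic cell markers the sum was 3664 to 7863 and 1570 to 1711 (6 or 60% higher on every mutant array, 0 called). Of all genes, 8.08% were higher and 7.98% lower on every mutant array, and 0.0550% were called in each direction. The sums of 8 erythroid markers overlapped, at 5006 to 9967 on mutant and 3896 to 7066 on wild type arrays, and so did those of 8 lymphoid markers, at 3451 to 3996 on mutant and 2974 to 3596 on wild type arrays. RMA gives no value of 0, and the lowest marker signals lay between 3.93 and 5.51 on the log2 scale in the mature cell lists.

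Proliferation genes, whose cells also need nucleotides, were about level in summed intensity, which weighs the brightest genes most. The sum over 14 genes was 59048 to 60292 on mutant arrays and 56935 to 61123 on wild type arrays. Their median log2 fold change was 0.08, and 10 of the 14 were above 0 (71.4%, against 40.4% of all genes and 58.5% of the 9088 brighter genes). On every mutant array 3 were higher (Mcm3, Ccna2 and Aurkb, 21.4%) and 0 lower. The shares higher were 8.08% of all genes and 13.4% of the brighter genes. Aurkb, a mitotic kinase, had the smallest p of the list, at 0.45 ± 0.17 (limma adjusted p = 0.46), whereas Mki67 had a log2 fold change of -0.04.

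**Figure D5:**
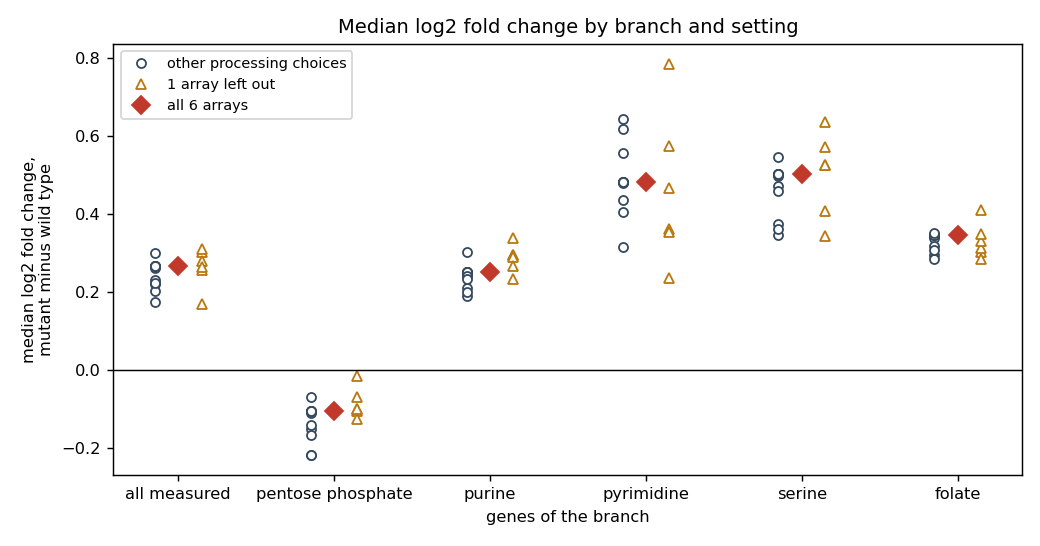
Median log2 fold change (mutant minus wild type) of all 32 genes and of each branch with all 6 arrays (diamond), under other processing choices (circles) and with 1 array left out (triangles). Every median of the purine, pyrimidine, serine and folate branches lies above 0 and every pentose phosphate median below it under the settings shown, and the pyrimidine branch has the widest range.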

How the data were processed

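The intensity values deposited by the authors are linear, from 7.60 to 33795, with a value for each probe set on each array. The submitters' processing notes name RMA, and no label records its version or settings. RMA corrects background, normalizes across arrays and summarises probes, so differences shared by all probe sets are removed. Log2 was taken. Of 45101 probe sets, 64 controls, 9160 naming no gene and 932 naming several were left out. The remaining 34945 gave 18193 genes (brightest probe set). The mutant and wild type arrays were fitted in limma 3.58.1 under R 4.3.3 (linear model and moderated statistics, no covariate, two-sided, Benjamini-Hochberg over all genes). Plots used matplotlib 3.10.9. The procedure was tested on simulated data. Precision is limited by having 3 arrays per group, and there is no read depth.

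Members, lists, tests and alternatives were chosen with earlier results of these data known. Values on every array are given for up to 5 genes per branch with the smallest p and for every other gene without overlap, and up to 3 genes of each other list are named by smallest p. Rrm1, Rrm2, Atf4, Mki67, Ccna2, Kit, Cd34, Meis1, Tpsb2 and Mcpt4 were named after their values were seen. Same-numbered arrays correlated at 0.18, -0.026 and 0.063 in their deviations from group means. With so few arrays these values cannot settle whether the numbers pair them, and the labels do not say. No pair of arrays shared more than 99 identical values.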

Additional observations from a re-analysis of the deposited data

How the results depend on the processing

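Calls over all genes were unstable, while 0 of the 32 genes were called under any setting. The count over all genes was 20, and it was 10 with the replicate block (arrays sharing only a number), 12 with probe sets kept apart, 40 with trend and robust fitting, 8 with array weights, 49 at an adjusted p under 0.10, 0 with Y-linked signal as a covariate, 0 without both wild type arrays that carry it, and 5 (without wild type array 3) to 31 (without wild type array 1) with 1 array left out, including 10 and 9 without mutant arrays 1 and 3. The covariate fit and the fit without those arrays rest on wild type array 1 as the only comparator, whose spread is assumed to be like that of the others.

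The median of the 32 genes (0.266) was 0.201 after cyclic loess normalization again, 0.174 when probe sets of a gene were averaged and 0.168 to 0.309 with 1 array left out. The pentose phosphate median (-0.106) was -0.151 after quantile and -0.168 after cyclic loess normalization again, -0.142 with the mean of probe sets, -0.0701 with array weights, -0.219 with the Y covariate and -0.218 without both Y-linked arrays, and -0.127 to -0.0164 with 1 array left out. With 1 array left out the purine median was 0.234 to 0.339 and the pyrimidine median 0.235 to 0.785. Alternatives for the counts of genes without overlap were chosen after seeing the data. Genes higher on every mutant array numbered 12 with the mean of probe sets (8.54% of all genes), 14 to 16 with 1 array left out (11.0% to 14.6% of all genes), and 19 without both Y-linked arrays, where 33.3% of all genes were higher. Those lower on every one numbered 5 without both Y-linked arrays, where 22.3% of all genes were lower, and 3 to 5 with 1 array left out (11.5% to 29.5% of all genes, with 5 without wild type array 2, where 11.7% were).

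Directions turned only for genes near 0 or with discordant probe sets. With averaged probe sets the log2 fold change was 0.093 for Mthfd1, 0.0097 for Nme1, 0.13 for Prps2 and -0.19 for Rpe. Impdh1 was 0.020 with array weights. With the Y covariate it was 0.017 for Impdh1, 0.22 for Mthfd1, 0.30 for Nme1, 0.12 for Pgls and 0.011 for Prps2, and without both Y-linked arrays 0.040, 0.22, 0.31, 0.12 and 0.019 in that order. With 1 array left out the log2 fold change ran from -0.0012 to 0.23 for Hprt, from -0.11 to 0.12 for Impdh1, from -0.17 to 0.10 for Mthfd1, from -0.18 to 0.079 for Nme1, from -0.040 to 0.018 for Paics, from -0.25 to 0.048 for Pgd and from -0.085 to 0.030 for Rpia. The cause of these changes was not tested.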
